A study of Mus musculus with 200 samples.

Results

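Mitochondrial ribosomal proteins were taken as every gene of the expression tables whose symbol is Mrpl or Mrps followed by a digit, and 76 of the 22033 genes measured met that rule, 47 of them named Mrpl and 29 named Mrps. Their transcripts were measured by 3SEQ, a 3′-biased RNA sequencing method, in single whole mouse embryos at embryonic day 11.5. The F1 embryos came from C57BL/6J (B6) females and CAST/EiJ (Cast) males (B6xCast, 8 embryos) or from the reciprocal mating (CastxB6, 8 embryos). The N2 embryos came from a backcross of F1 animals to B6, with a B6 mother and an F1 father (B6xF1, 89 embryos) or the other way round, from an F1 mother (F1xB6, 65 embryos). Every F1 parent had a B6 mother, so all N2 embryos carried B6 mitochondria, and at each autosomal gene an N2 embryo was either B6/B6 or heterozygous B6/Cast. No treatment was given, and each library was made from 1 embryo. The 154 N2 embryos fell into 29 litters and were sequenced in 14 lanes of 2 flowcells, 13 of which held embryos of 1 kind of mother only. Stage was given as somite number, which ran from 42 to 57 in the 147 N2 embryos that had both a genotype and a count of somites. Where counted, the F1 embryos had 48 to 63 somites in B6xCast and 41 to 48 in CastxB6. Each F1 embryo was sequenced in more than 1 run, most on GAIIx and HiSeq sequencers, and those of a CastxB6 litter on HiSeq only.

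Mitochondria translate the few proteins of their own genome on a separate ribosome. All protein subunits of that ribosome are encoded in the nucleus, made in the cytosol and imported, while its RNAs come from mitochondrial DNA. Many subunits descend from bacterial ribosomal proteins, and others are found only in mitochondria. Some small-subunit names are historical: the products of Mrps18a and Mrps30 sit in the large subunit. By these classes the members were 29 large-subunit proteins with a bacterial counterpart, 19 large-subunit proteins specific to mitochondria, 16 small-subunit proteins with a bacterial counterpart and 10 specific to mitochondria, with Mrpl55 and Mrps36 left unclassed. The members lie on 17 chromosomes, and the exons of 21 of them overlap those of another protein-coding gene in the GENCODE annotation of NCBIM37 (mm9), the build of the files.

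Promoters of many nuclear genes for mitochondrial proteins hold sites for NRF1, for ETS-family factors such as GABP, and for YY1. RefSeq windows of GRCm38.p6, from 250 bases before to 50 after the start, were matched by symbol for 67 of the 76 members. The letters searched on both strands were GCGCATGC for NRF1 (a piece of its palindrome, whose longer form GCGCATGCGC matches on both strands), CCGGAAG for the ETS family and AAGATGGCG for YY1. The NRF1 letters were in 8 member windows (11.9%, against 2.80% of all 27025 windows), the ETS letters in 23 (34.3%, against 9.12%), and the YY1 letters in 8 (11.9%, against 1.49%). At least 1 of the 3 was in 33 windows, 49.3% of the members' and 12.5% of all. The members' windows were also richer in G and C, with a median of 58% against 52.7%, and the shares were not adjusted for that. The windows below belong to 4 of the 5 members whose level differed by mother, shown because each of the 4 holds one of the motifs, with the motif in capitals and each window read 5′ to 3′ on the strand of the gene. They are Mrpl9 (chr3:94443086-94443385, plus strand, NRF1), Mrpl53 (chr6:83108858-83109157, plus strand, ETS on both strands), Mrps23 (chr11:88204138-88204437, plus strand, ETS) and Mrps24 (chr11:5707652-5707951, minus strand, YY1). The Mrps34 promoter was not analysed here.
Mrpl9: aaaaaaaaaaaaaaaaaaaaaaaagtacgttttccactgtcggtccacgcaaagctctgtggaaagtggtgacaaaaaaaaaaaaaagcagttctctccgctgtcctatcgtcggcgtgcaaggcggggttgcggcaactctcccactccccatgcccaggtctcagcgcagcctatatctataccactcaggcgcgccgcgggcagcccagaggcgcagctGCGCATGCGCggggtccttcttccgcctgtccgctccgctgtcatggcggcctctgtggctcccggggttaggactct
Mrpl53: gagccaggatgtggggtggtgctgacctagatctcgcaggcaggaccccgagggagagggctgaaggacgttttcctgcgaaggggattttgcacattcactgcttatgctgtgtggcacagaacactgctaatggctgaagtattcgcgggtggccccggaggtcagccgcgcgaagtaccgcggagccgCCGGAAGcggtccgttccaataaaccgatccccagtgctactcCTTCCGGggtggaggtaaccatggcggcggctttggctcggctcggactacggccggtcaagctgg
Mrps23: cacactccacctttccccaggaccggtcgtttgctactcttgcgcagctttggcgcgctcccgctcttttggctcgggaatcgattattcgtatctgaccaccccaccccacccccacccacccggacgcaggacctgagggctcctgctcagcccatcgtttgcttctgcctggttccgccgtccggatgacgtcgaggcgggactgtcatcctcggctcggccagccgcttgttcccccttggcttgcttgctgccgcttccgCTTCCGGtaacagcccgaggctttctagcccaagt
Mrps24: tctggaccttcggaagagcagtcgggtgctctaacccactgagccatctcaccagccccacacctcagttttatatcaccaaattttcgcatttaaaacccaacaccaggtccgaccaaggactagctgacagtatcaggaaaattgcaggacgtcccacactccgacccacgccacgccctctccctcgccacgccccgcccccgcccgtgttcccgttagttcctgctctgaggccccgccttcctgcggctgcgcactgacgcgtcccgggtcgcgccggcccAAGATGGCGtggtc
A run of letters in a window does not show that a factor binds there.

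Levels were given as RPM, a gene's read count scaled to a library of 1000000 reads. 3SEQ reads come mainly from the 3′ end of a transcript, so they were not divided by length, and the order below is an order of RPM. Library totals ranged from 15703888 to 38234229 reads in the F1 embryos and from 245220 to 5370322 in the N2 embryos, where 13 libraries held under 1000000. Of 9 markers of whole-embryo tissues, 8 averaged at least 5 RPM. Of the 76 members, 71 had a mean of at least 5 RPM in the N2 embryos, the level a gene needed to be tested for somite number, mother and own genotype, as 9733 autosomal genes did. The 5 below it were Mrpl48 (2.96 RPM), Mrpl21 (2.94), Mrps36 (1.6), Mrps18b (0.90) and Mrpl23 (0.88), and reads of Mrpl23 were seen in all but 48 of the 154 embryos. The highest was Mrpl54, of the large subunit, at 748.2 ± 212 RPM (mean ± SD, n = 154), from 307.4 to 1569. Mrpl52 had a mean of 508.4 RPM, Mrpl33 445.0, Mrpl13 415.8 and Mrpl12, whose product belongs to the stalk that recruits translation factors, 385.0. In all, 26 members averaged 100 RPM or more, and the median over the 71 was 77.6. Among the 3 paralogs of bacterial S18, Mrps18a had 221.4 RPM, Mrps18c 5.63 and Mrps18b 0.90, and Mrps18a (from 75.7 to 560.7) lay above both in all embryos. Mrps18c (SD 6.39, from 0 to 33.7) and Mrps18b (SD 0.82, from 0 to 5.83) overlapped. Together the 76 members took 0.889% of the reads of an N2 embryo, 8891.5 ± 1052 RPM (n = 154, from 5765.84 to 13311). The sum was 9083 ± 323 RPM in B6xCast and 9670 ± 492 in CastxB6 embryos (n = 8 each).

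**Figure D1:**
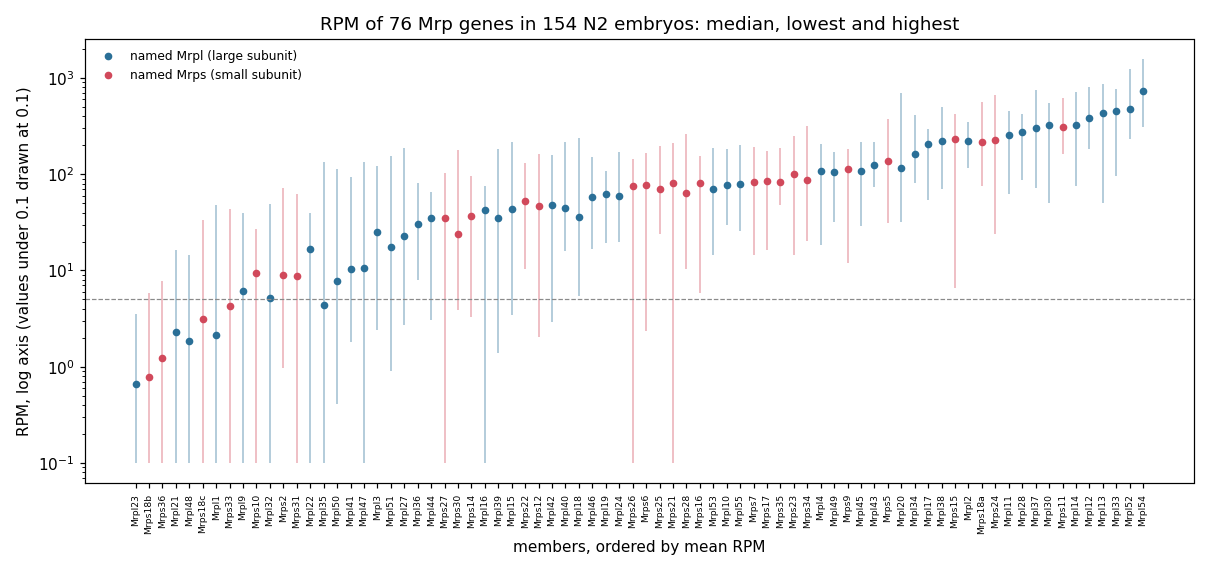
RPM of each of the 76 members in 154 N2 embryos, on a log axis, with the median as a point and the lowest and highest embryo as a line. Members are ordered by mean RPM, colour marks the subunit in the name, and values under 0.1 are drawn at 0.1. Mrpl54 is highest, with embryos from 307.4 to 1569 RPM, and several members with low medians span more than a factor of 10 between embryos.

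Levels of the members differed widely between the lanes in which the N2 embryos were sequenced. Lane explained a median of 66.1% of the variance of a member's RPM ranks, from 17.4% for Mrps17 to 84.1%, and 59.4% over all genes tested. Litter, which overlaps with lane, gave 63.1%, and mother 2.71% (1.58% over all genes). Nearly all lanes held a single kind of mother, so the lane share could hardly fall below that of mother. No such share was computed for stage. The ratio of the highest to the lowest lane mean had a median of 4.10, was over 2 for 64 members and over 5 for 32. It was lowest for Mrpl43, at 1.45, with lane means from 102.6 to 148.4 RPM. At the other end, Mrpl1, a large-subunit protein with a bacterial counterpart, had a ratio of 27.3, with 0.74 RPM in lane H and 20.2 in lane N. The summed RPM was lowest in lane J (6764 ± 722, n = 11), whose libraries had a median of 577807 reads, and highest in lane N (10675 ± 1430, n = 12). Lane N had the highest mean of 20 members, and lane J the lowest of 26. Every mean of lanes K, L, M and N was above every mean of lanes A, B, C, H and I for 34 of the 71 members (47.9%), close to the 46.8% of all genes tested for which this held. The opposite order held for 8 members (11.3%) and for 22.2% of all genes. Across the 71 members the lane share was somewhat lower at higher mean RPM (Spearman rho -0.25, and 0.11 across all 9733 genes), a description over genes that share the same libraries.

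**Figure D2:**
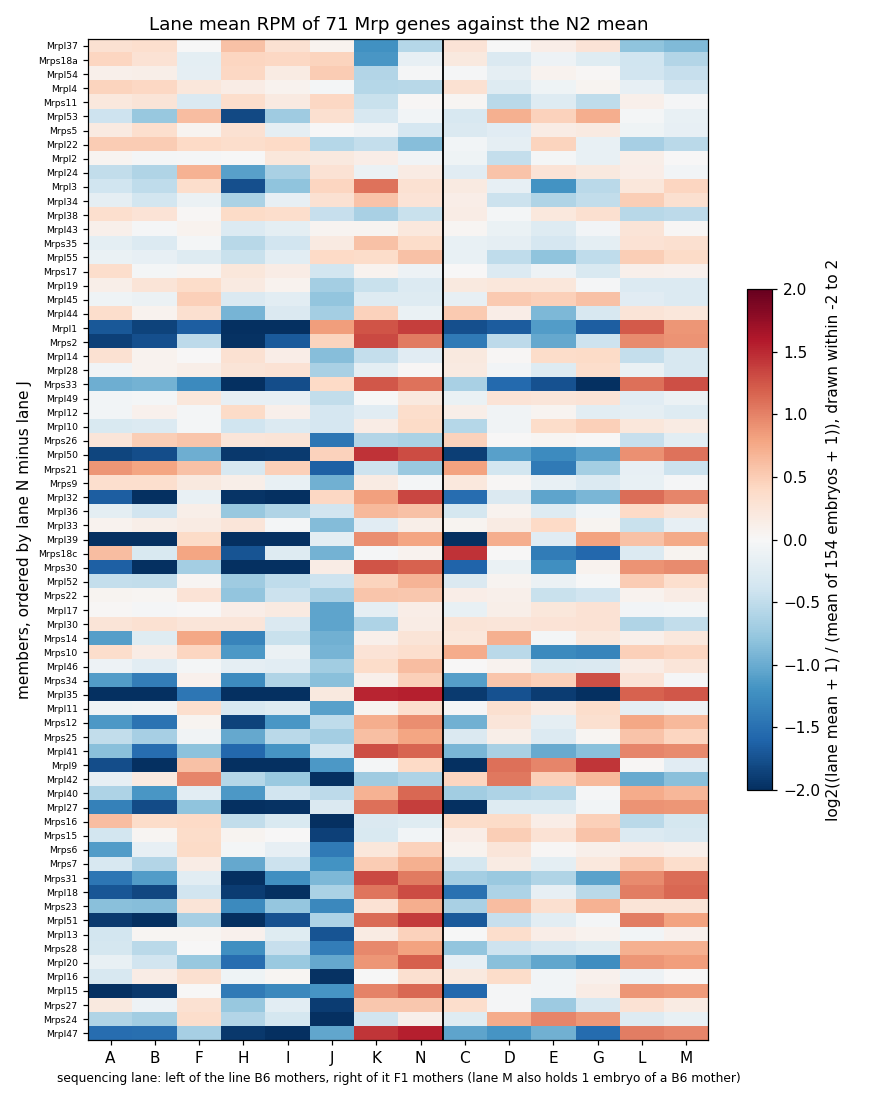
Mean RPM of each of 71 members in each of 14 sequencing lanes, as log2 against its mean over all N2 embryos. Lanes of B6 mothers are left of the line and lanes of F1 mothers right of it, and members are ordered by lane N minus lane J. Lane J holds the lowest mean of 26 members and lane N the highest of 20, and some members change by more than a factor of 10 between lanes.

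Whether the members changed with stage was asked by the Spearman correlation of RPM with somite number over 147 N2 embryos. At a Benjamini-Hochberg q of 0.05, 18 members passed, and all 18 fell in embryos with more somites, while none rose. That is 25.4% of the 71 tested, against 22.3% of all genes tested, of which the larger part rose (14.3% rose and 7.99% fell). The median correlation was -0.13 over the members and -0.02 over all genes, and 13 members had a correlation above 0. The 18 were 9 of 27 large-subunit members with a bacterial counterpart, 2 of 18 large-subunit members specific to mitochondria, 4 of 16 small-subunit members with a bacterial counterpart and 3 of 9 specific to mitochondria.

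The member with the largest correlation was Mrpl11, whose product is at the base of the ribosomal stalk (rho -0.35, q = 0.000264). It averaged 324 ± 58.5 RPM in 21 embryos of at most 45 somites, 253 ± 66 in 112 embryos of 46 to 52, and 222 ± 88.6 in 14 embryos of at least 53. Those groups overlap, with embryos from 207.0 to 421.9 RPM in the youngest and from 62.2 to 370.8 in the oldest. Mrpl49 (rho -0.31), Mrpl33 (-0.29), Mrpl9 (-0.27), Mrpl18 (-0.27), Mrps22 (-0.26), Mrps23 (-0.26) and Mrpl36 (-0.25) fell as well. Mrps18a, with a rho of 0.19 (q = 0.081), had the highest correlation of all members and did not pass.

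Since lanes differed in stage (lane N held embryos of 42 to 47 somites and lane I of 46 to 57), lane was then taken out of both sets of ranks. Mrpl30 and Mrps5 passed in that fit, 2 of 71 members (2.82%), while 11.6% of all genes did, and the median correlation of the members was -0.02 (0.02 over all genes). Mrpl30, a large-subunit protein, had a rho of -0.28 (q = 0.0133) with lane out. Its mean was 350 ± 76.6 RPM at 45 somites or fewer, 297.5 ± 96.8 at 46 to 52 and 259 ± 76.9 at 53 or more (n = 21, 112 and 14). Mrps5, a small-subunit protein near the site where mRNA enters, had a rho of -0.27 (q = 0.0219), with 146 ± 39.3, 137 ± 39.9 and 131 ± 20.5 RPM in the same groups. For both genes the youngest and oldest embryos overlapped. Littermates share a stage, and over means per litter 0 of the 71 members passed the Spearman test, Mrpl30 and Mrps5 included (4 at an unadjusted p under 0.05, all 4 with a correlation below 0). With a slope for somite number and lane as a factor, edgeR's quasi-likelihood test called Mrps5 and Mrpl19, 2 members, and DESeq2's Wald test called 5, Mrps5 and Mrpl30 among them. The summed RPM of 6 proliferation markers, all 6 above 5 RPM, moved the same way as the members, from 1584 ± 312 at 45 somites or fewer to 1026 ± 410 at 53 or more, and that of 7 erythroid markers went from 87622 ± 36971 to 62816 ± 13445. That of 8 placenta and decidua markers, of which 2 reached 5 RPM, went from 72.4 ± 31.3 to 62.8 ± 22.4, while that of 5 neuron markers went the other way, from 819 ± 167 to 1070 ± 410. Their part in the members' correlations was not tested. In whole embryos, fewer cells of a type and less RNA per cell cannot be told apart.

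**Figure D3:**
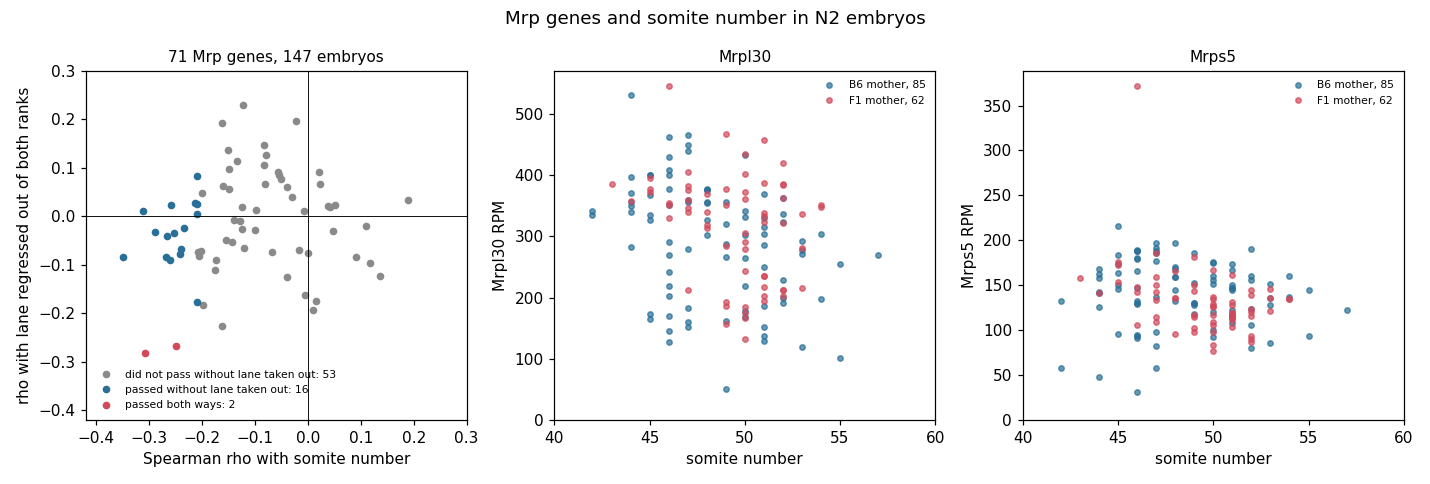
Left, the Spearman correlation of each of 71 members with somite number in 147 N2 embryos (x axis) against the same with lane taken out of both ranks (y axis). Middle and right, RPM of Mrpl30 and Mrps5 by somite number, with a point per embryo and colour for the mother (85 B6, 62 F1). Of 18 members that passed without lane taken out, Mrpl30 and Mrps5 passed both ways, and most others lie near 0 on the y axis.

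The correlations differed by mother. In embryos of B6 mothers 48 of the 71 members passed alone, and in those of F1 mothers 13. The shares of all genes that passed in these sets are not given here, so these counts cannot be set against them. A Fisher z test of the difference between the 2 correlations called 41 members (57.7%, against 37.3% of all genes), 38 of them lower in embryos of B6 mothers. Mrps27, a small-subunit protein specific to mitochondria, had a rho of -0.58 with B6 mothers and 0.44 with F1 mothers, the largest such difference. With lane taken out, 0 of the 71 passed the same Fisher z test (7 at an unadjusted p under 0.05, all 7 lower with B6 mothers), and 0.0103% of all genes did. Mothers were nested in lanes, so a difference between mothers and one between their lanes cannot be told apart in the first of these tests.

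The level itself was compared between mothers by a Mann-Whitney U test over 89 and 65 embryos with a Bonferroni-adjusted p of 0.01. Of the 71 members, 5 passed, all of them higher in embryos of F1 mothers. This is 7.04% of the members, against 5.03% of all genes, of which most were also higher with F1 mothers. The remaining 66 did not pass, and the median log2 ratio of B6 to F1 mothers was -0.06 over the members and 0.03 over all genes.

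Mrps24, of the small subunit, averaged 190 ± 99.2 RPM with B6 mothers and 342 ± 155 with F1 mothers (log2 ratio -0.85, adjusted p = 4.5e-05). Embryos of B6 mothers ran from 24 to 472 RPM with a median of 187.0, and those of F1 mothers from 42.9 to 657.8 with a median of 299.6, so the groups overlapped. Mrps34, a small-subunit protein specific to mitochondria, had 78.4 ± 45.2 against 138 ± 75 RPM (log2 -0.82). Mrpl9 had the largest ratio and the lowest level of the 5, 6.14 ± 7.79 against 15.5 ± 11.5 RPM (log2 -1.33), and 7 embryos of B6 mothers held no read of it. Mrps23 had 83.2 ± 51.1 against 123 ± 42.3 RPM (log2 -0.56), and Mrpl53 67.3 ± 40.1 against 101 ± 38.2 (log2 -0.58). Mrps18a went the other way, at 243 ± 90.8 with B6 mothers and 192 ± 52.2 with F1 mothers, and did not pass (adjusted p = 0.476).

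Within flowcell 1 the 5 members followed lanes that cut across the mothers. Lanes A, B and F held B6 mothers and lanes C, D, E and G held F1 mothers, yet for all 5 the means of lanes A, B and C lay below those of D, E, F and G. For Mrpl9 these means ran from 1.5 to 2.25 RPM in lanes A to C and from 15.7 to 28.7 in lanes D to G, where lane C, of F1 mothers, had the lowest of these at 1.5. For Mrps24 they were 157.0 to 213.5 and 323.8 to 498.4 RPM, with 213.5 in lane C and 323.8 in lane F. Mrps34 had 39.1 to 47.8 against 110.4 to 254.3 RPM, Mrps23 54.8 to 63.5 against 119.9 to 162.7, and Mrpl53 47.5 to 65.1 against 112.5 to 136.1. This order of lanes, picked out after the means were seen, held for 27 of the 71 members (38%) and for 19.4% of all genes, and the opposite order for 9 members (12.7%) and 23.4% of all genes. Over means per litter (17 and 12 litters) and with litter as a random block in limma voom, 0 of the 71 members passed. In flowcell 2 alone, 0 passed the Mann-Whitney test. Over means per lane and mother 0 passed too, but these means are so few that no gene could reach the adjusted threshold there. The counts at an unadjusted p under 0.05 were 10 over litters, 4 over lanes, 8 in voom and 47 in flowcell 2, where 37 of them were higher with F1 mothers. The shares of all genes at that unadjusted level are not given here. In flowcell 2 too, mothers were nested in lanes but for 1 embryo in lane M. Over litter means, Mrps24 (p = 0.00157), Mrps34, Mrpl9 and Mrps23 were under that unadjusted level, and Mrpl53 (p = 0.0655) was not. Exons of 3 of the 5 overlap a gene on the same strand (Mrps24 with Urgcp, Mrpl53 with Ccdc142 and Mrps34 with Nme3), so their reads may be shared. The proliferation markers differed between mothers as well, with a summed 979 ± 429 RPM with B6 mothers and 1378 ± 443 with F1 mothers. The placenta and decidua markers had 51.8 ± 33.2 (from 4.84 to 202.2) and 69.9 ± 25.6 RPM (from 6.19 to 112.8), the same direction as the 5 members. Erythroid markers had 81908 ± 30664 and 89038 ± 42345 RPM, and neuron markers 939 ± 290 and 874 ± 206. The part of these markers was not tested.

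With lane taken out of the ranks, pairs of members were only loosely correlated across the 154 embryos. The median Spearman correlation over 2485 pairs was 0.10, with a middle range from -0.11 to 0.28, and 62.7% of pairs were above 0. Over all pairs of genes tested the median was 0.04 and 58.4% were above 0, and between members and other genes the median was 0.03. With TMM-scaled counts the members' median stayed at 0.10 while that of all pairs was 0.00. The closest pair was Mrps23 and Mrps34, both small-subunit proteins specific to mitochondria, at 0.71, followed by Mrpl24 and Mrpl53 (0.70), Mrps11 and Mrpl54 (0.68), and Mrpl37 and Mrpl38 (0.68). The lowest pair was Mrpl15 and Mrpl4, both large-subunit proteins, at -0.64. A set of 6 members had median correlations with the other members of -0.22 to -0.28, namely Mrpl38, Mrps11, Mrpl54, Mrps5, Mrpl4 and Mrpl37, and pairs within this set, such as Mrps11 and Mrpl54, were among the closest of all. These values share libraries and depth and are a description. The genes outside the set whose level was most like the members' summed RPM, lane out, over 154 embryos were Nhp2 (0.55), Nme1 (0.53), Eif3k (0.51), Gtf2f2 (0.49) and Tmem219 (0.47).

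Allele-specific expression was measured in the 16 F1 embryos and in heterozygous N2 embryos. A read over a SNP gave its vote to the B6 or the Cast allele, and the B6 allele fraction is the share of B6 votes. The depth behind it varied by gene: in heterozygous N2 embryos the members tested had a median of 44.9 votes per 100 reads, from 0.13 to 94.0, and 13 members had no vote at all. In B6/B6 embryos a median of 0.11% of a member's votes were for Cast (57 members, at most 0.99%), which is the background of these fractions. Of 58 members with 20 votes in each of the 4 crosses, 18 passed the paired test (Bonferroni-adjusted p under 0.01) with a fraction outside 0.45 to 0.55. That is 31%, against 18.9% of all genes tested, and the alleles were balanced, with 9 members higher from B6 and 9 from Cast. The median fraction was 0.51 over the members and 0.50 over all genes. The 18 included 6 of 20 large-subunit members with a bacterial counterpart, 5 of 17 large-subunit members specific to mitochondria, 6 of 13 small-subunit members with a bacterial counterpart, 0 of 7 specific to mitochondria, and Mrpl55. At an adjusted q of 0.05 in the same paired test 23 members passed, and 14 did in the F1 embryos alone. The shares of all genes in these settings are not given here.

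Among the members expressed more from B6, Mrpl14, which lies at the face between the subunits, had a fraction of 0.70 over all embryos. In the F1 embryos it was 0.70 ± 0.05 in B6xCast and 0.71 ± 0.07 in CastxB6 (n = 8 each), from 0.61 to 0.80, all above 0.5. Its votes were few, 1.49 per 100 reads in heterozygous embryos. Mrpl11 and Mrpl50 each had a fraction of 0.66, Mrpl45, which contacts the inner membrane, 0.63, and Mrps12, a protein of the decoding centre, 0.62. Mrpl37 had 0.58 and Mrps9 0.57. For Mrps12 the crosses differed in spread, with 0.59 to 0.68 in B6xCast and 0.48 to 0.69 in CastxB6 embryos. Mrpl48 had the highest fraction of all, 0.75, but it was below 5 RPM and did not pass (adjusted p = 0.099).

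Among those expressed more from Cast, Mrps17, an early-binding small-subunit protein, had a fraction of 0.34 over all embryos. It was 0.33 ± 0.02 in B6xCast and 0.35 ± 0.03 in CastxB6 (n = 8 each), and the 16 F1 embryos ran from 0.29 to 0.38. Lane means in heterozygous N2 embryos ran from 0.26 to 0.39, all below 0.5. Mrps18c had 0.30, Mrpl51 0.32, Mrpl20 0.39, Mrps28 0.40 and Mrpl13 0.43, with 0.41 to 0.45 across the F1 embryos for Mrpl13.

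Mrpl18 stood furthest from balance, with a fraction of 0.05, and 0.03 ± 0.02 and 0.03 ± 0.01 in the 2 kinds of F1 embryos. In heterozygous N2 embryos the pooled fraction was 0.16, with 0.11 ± 0.11 with B6 mothers (n = 13) and 0.20 ± 0.11 with F1 mothers (n = 18). It varied by lane, on 1 to 6 embryos each: lanes B, D, E, F and G had 0.21 to 0.33, lane C 0.15 and lanes I and M 0.02 and 0.04. Lanes H, K, L and N held no B6 vote among 20 to 46 votes, which allows fractions of up to 0.15 in lane H and up to 0.07 in lane N. All were below 0.5.

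The own-genotype test described below called Mrpl18 as well, with a log2 difference of 0.26 (q = 7.77e-06), higher in heterozygous embryos. Uncorrected means did not show it, at 57.5 ± 54.3 RPM in 72 heterozygous and 61.3 ± 62.4 in 82 B6/B6 embryos. Lane means of this gene ran from 13.1 to 149 RPM, and the log2 difference was 0.24 (q = 0.00879) with lane alone taken out and 0.06 (q = 0.809) with nothing taken out. Reads from B6/B6 embryos rarely gave a vote at this gene, 5.87 per 100 reads against 18.5 in heterozygous N2 embryos. The F1 embryos, also B6/Cast, gave 49.0 votes per 100 reads. The exons of Mrpl18 overlap those of Tcp1 on the opposite strand, and how reads were assigned by strand is not given in the sources used here. With votes this unequal between genotypes and between generations, the fraction is that of the informative reads and not of all reads.

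Mrps24, balanced over all embryos (0.50), varied by lane in heterozygous N2 embryos. Its pooled fraction was 0.17 to 0.29 in lanes A, B, C, H and I and 0.43 to 0.55 in lanes D, E, F, G, K, L, M and N, and lane J had no such embryo with 20 votes. In flowcell 1 the lanes with the lower fraction, A, B and C, were also those with lower RPM of this gene. Its exons overlap those of Urgcp on the same strand, and the part of that overlap was not tested.

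**Figure D4:**
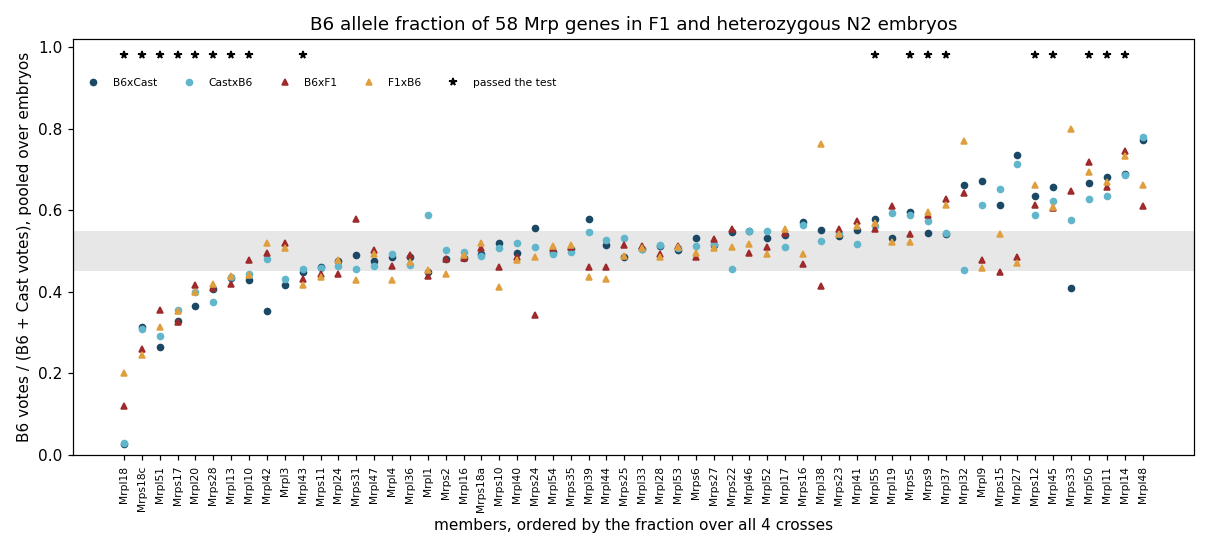
B6 allele fraction (B6 votes over B6 plus Cast votes, pooled over embryos) of 58 members in B6xCast and CastxB6 F1 embryos (circles) and in heterozygous B6xF1 and F1xB6 N2 embryos (triangles), ordered by the fraction over all crosses. Stars mark the 18 members that passed, and the grey band is 0.45 to 0.55. Mrpl18 is near 0 in the F1 embryos, and Mrps24 in B6xF1 embryos lies below its values in the other 3 crosses.

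Whether the direction of the F1 cross changed the fraction was tested by an exact permutation test of 8 against 8 embryos (12870 arrangements). Of 46 members with 20 votes in every F1 embryo, 1 passed a q of 0.05, 2.17% against 1.69% of all genes tested. This was Mrpl42, of the large subunit, with a B6 fraction of 0.34 ± 0.05 in B6xCast and 0.48 ± 0.05 in CastxB6 embryos (difference -0.14, exact p = 0.000155, q = 0.0156). The 8 B6xCast embryos ran from 0.28 to 0.42 and the 8 CastxB6 embryos from 0.43 to 0.58, with no overlap. The lowest CastxB6 value, 0.427, was close to the highest B6xCast value, 0.424. Each cross came from only 2 litters, so cross and litter cannot be told apart. The crosses also differed in stage, 48 to 63 somites in B6xCast and 41 to 48 in CastxB6, and in the strain of their mitochondria. The CastxB6 litter of 46 to 48 somites had no GAIIx run, unlike the other litters. Cross cannot be told apart from these either. In heterozygous N2 embryos the fraction was 0.48 ± 0.09 with B6 mothers and 0.52 ± 0.07 with F1 mothers (n = 25 and 21), a difference that did not pass the Mann-Whitney U test (q = 0.519). Mrps9 (difference -0.03, exact p = 0.0014, q = 0.0679) and Mrpl45 (0.04, exact p = 0.00186, q = 0.0783) came next, and Mrps12 (0.09, exact p = 0.02, q = 0.224) and Mrps24 (0.07, exact p = 0.0963, q = 0.459) had the next largest differences.

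The effect of an N2 embryo's own genotype at each gene was tested on log2(RPM + 1) after lane, sex, somite number and 15 principal components were regressed out. Of 71 members, 25 differed between heterozygous and B6/B6 embryos at a q of 0.01, 35.2% against 29.2% of all genes tested. Heterozygous embryos were higher for 13 of the 25, and B6/B6 embryos for 12. The 25 comprised 10 of 27 large-subunit members with a bacterial counterpart, 7 of 18 specific to mitochondria, 5 of 16 small-subunit members with a bacterial counterpart, 2 of 9 specific to mitochondria, and Mrpl55. In a test of the difference between mothers 0 of the 71 passed (6 at an unadjusted p under 0.05), as 0.205% of all genes did.

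Mrps17 showed the clearest gap in RPM. It averaged 108 ± 22.5 RPM in 78 heterozygous embryos, from 65.5 to 173.7 with a median of 104.0, and 67.7 ± 15.2 in 76 B6/B6 embryos, from 16.3 to 103.3 with a median of 67.9. The highest B6/B6 embryo was just under the heterozygous median, and the corrected log2 difference was 0.44 (q = 8.9e-20). Mrps17 is also the member whose ranks depended least on lane. Mrpl14 was lower in heterozygotes, 270 ± 76.2 RPM in 68 embryos against 379 ± 99.2 in 85 (log2 -0.41, q = 1.1e-21). Its heterozygous embryos ran from 74.5 to 463.2 RPM and its B6/B6 embryos from 167.1 to 707.4, which overlap.

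Of the other members with the smallest p, Mrpl34 (197 ± 61.3 against 158 ± 58.1 RPM, log2 0.26), Mrpl51 (31.2 ± 30.9 against 26.7 ± 28.8, log2 0.46), Mrps26 (78.2 ± 32.1 against 65.9 ± 23, log2 0.25), Mrps28 (87.2 ± 54.8 against 71.4 ± 44.8, log2 0.28) and Mrpl43 (135 ± 24 against 116 ± 23.6, log2 0.19) were higher in heterozygous embryos. Mrpl37 (268 ± 93.4 against 316 ± 134 RPM, log2 -0.19), Mrpl11 (238 ± 63.0 against 284 ± 71.9, log2 -0.19) and Mrps9 (101 ± 22.8 against 119 ± 31.2, log2 -0.18) were lower. For Mrpl51 and Mrps28 the uncorrected SDs exceed the gap several times over, and these calls rest on the correction for lane and components. Without any covariate 8 of the 25 passed, Mrps17, Mrpl14, Mrpl34, Mrpl11, Mrpl43, Mrps9, Mrpl17 and Mrpl44. Mrps18a (log2 0.03, q = 0.215) and Mrps18c (log2 0.21, q = 0.177) did not pass.

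A gene expressed more from one allele in heterozygotes can be compared with its own-genotype difference, since both measure the same locus. Of 57 members tested both ways, 15 passed both, with the same allele higher in all 15. Among all genes 7282 were tested both ways, 1119 passed both and 1085 of those had the same higher allele. Mrps5, Mrps18c and Mrpl10 passed for allele fraction only, and Mrpl4, Mrpl17, Mrpl19, Mrpl44, Mrps11 and Mrps23 for own genotype only. Heterozygous N2 embryos entered both tests, so the 2 are not fully independent. Mrps26, Mrpl34, Mrpl49 and Mrpl15, which passed for own genotype, had too few votes for the allele test.

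Close neighbours shared genotypes without sharing effects. Mrpl11 (chr19:4962315-4964943) and Mrpl49 (chr19:6053630-6057758), 1.09 Mb apart in mm9, had the same genotype in 154 of 154 embryos, yet Mrpl11 was lower (log2 -0.19) and Mrpl49 higher (log2 0.09) in heterozygotes. Mrpl10 and Mrpl45, 0.267 Mb apart on chromosome 11, also agreed in 154 of 154 embryos, and Mrpl45 fell (log2 -0.15) while Mrpl10 had a log2 difference of 0.03 (q = 0.384). Mrpl14 (chr17:45823271-45835444) and Mrps18a (chr17:46247935-46265859) had the same genotype in 152 of 153, with log2 differences of -0.41 and 0.03. Mrps17 lies at chr5:130221372-130224750, with no overlap of its exons with another protein-coding gene.

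**Figure D5:**
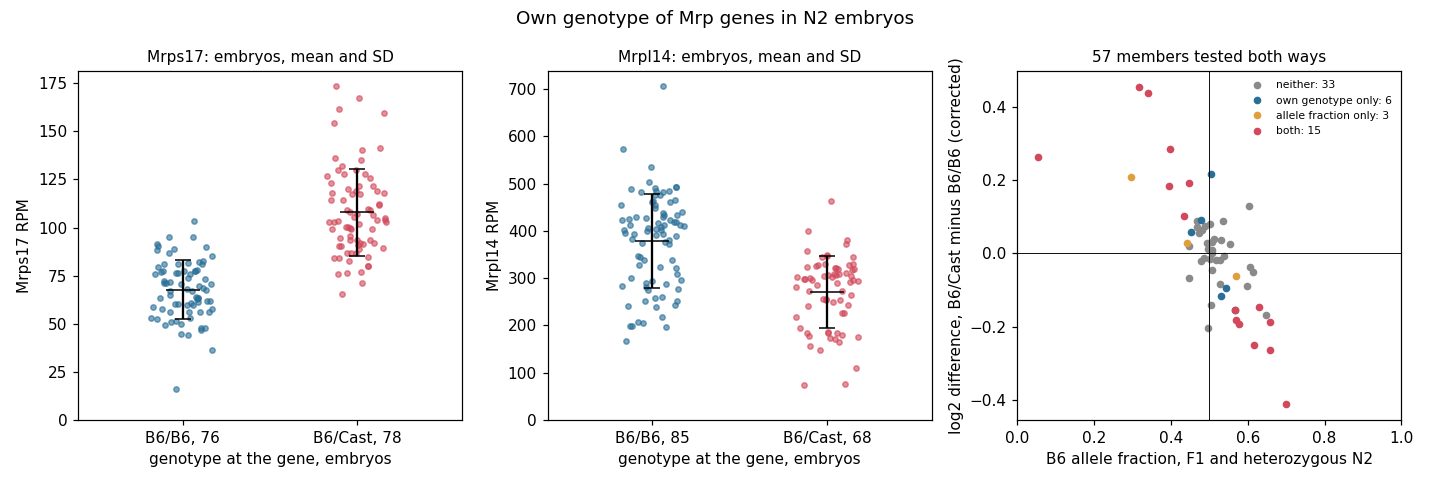
Left and middle, RPM of Mrps17 and Mrpl14 in N2 embryos by genotype at the gene, with a point per embryo and the mean ± SD as bars (76 and 78 embryos for Mrps17, 85 and 68 for Mrpl14). Right, the corrected log2 difference between heterozygous and B6/B6 embryos against the B6 allele fraction for 57 members tested both ways. Mrps17 is higher and Mrpl14 lower in heterozygotes, and the 15 members that passed both tests lie in the quadrants where the same allele is higher.

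The other genes of mitochondrial translation were read from lists of partner genes. Of 7 mitoribosomal proteins with other names, Aurkaip1 was called for somite number (rho -0.24) and none differed by mother. Gadd45gip1, a large-subunit protein, was expressed more from B6 (fraction 0.65) and was lower in heterozygotes (log2 -0.18), and Aurkaip1 (log2 0.33) and Dap3 (log2 -0.17) differed by own genotype too, among 5 of the 7 (29.2% of all genes passed that test). Of 10 translation factors tested, Mtif2, which starts translation, was called for somite number (rho -0.31). Tufm, the elongation factor that brings tRNAs, had a B6 fraction of 0.79 and was lower in heterozygotes (log2 -0.57). Mrrf, which recycles ribosomes, had 0.73 and a log2 difference of -0.46, and Taco1, an activator of translation of a respiratory chain subunit, was higher in heterozygotes (log2 0.72). In all, 5 of 10 factors passed for allele fraction (18.9% of all genes) and 5 of 10 for own genotype.

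Of 17 assembly factors tested, Mettl17 was called for somite number (rho -0.21). Mettl17 and Rpusd4 were higher with F1 mothers (log2 -0.61 and -0.43) and Rbfa with B6 mothers (log2 0.34). These calls by mother were 3 of 17 (17.6%, against 5.03% of all genes). The 3 did not pass over litter means. Eral1 (fraction 0.29), Gtpbp5 (0.42) and Rpusd4 (0.44) were expressed more from Cast, 3 of 16 factors with enough votes (18.8%). Gtpbp5 (log2 -0.30), Rbfa (-0.20) and Mettl17 (0.17) were among 5 of 17 that differed by own genotype (29.4%). The shares for allele fraction and own genotype were close to those of all genes. Gtpbp5 was lower in heterozygotes although its Cast allele gave more votes, so its tests named opposite alleles as the higher. Of 15 mitochondrial tRNA synthetases, Aars2 (rho -0.31), Yars2 (-0.24) and Vars2 (0.28) were among 4 called for somite number (26.7%, against 22.3% of all genes). Fars2 was higher with B6 mothers (log2 0.24), a call that was lost over litter means. Wars2 (0.59) and Pars2 (0.62) were expressed more from B6 and Cars2 (0.40) from Cast, while Lars2 (log2 -0.49), Aars2 (0.21) and Cars2 (0.17) were among 6 of 15 that differed by own genotype (40%). Of 8 regulators, Nrf1, the factor of the motif above, was called for somite number with a rho of -0.22 and Esrra with 0.24. Tfam, which packages mitochondrial DNA, was expressed more from Cast (fraction 0.44) and was higher in heterozygotes (log2 0.38), and Polrmt was higher in them too (log2 0.10).

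Of all these somite calls in the partner lists, the one of Aars2 was kept with lane taken out (rho -0.34, q = 0.00149). The others were lost, with correlations of 0.05 for Aurkaip1, -0.10 for Mtif2, -0.08 for Mettl17, -0.11 for Yars2, 0.12 for Vars2, 0.01 for Nrf1, 0.07 for Esrra and -0.02 for Rars2, the remaining synthetase. Sars2 (rho -0.26, q = 0.0288) and Tfam (rho -0.27, q = 0.0201), which did not pass before, fell with lane taken out, and 11.6% of all genes passed that fit.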

How the data were processed

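Expression of the 76 members was measured by 3SEQ in 16 F1 embryos and 154 N2 embryos that had a mother, a lane and genotypes. The authors trimmed poly(A) stretches, aligned reads with Bowtie2 to mm9 and to a Cast version of it, and deposited read counts per gene over exons. They also deposited allele votes, which are estimated counts since a read over several SNPs splits its vote, and a genotype per gene and embryo. The strand setting is not given in the sources used here. The members and gene lists were chosen with earlier results of these data known. The tables held 8 columns of N2 embryos whose labels gave no mother, and they were not used, nor were 6 N2 embryos that had a mother but no genotypes, except in an alternative.

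RPM were computed over the whole table, and tests were run on every autosomal gene averaging 5 RPM or more: Spearman correlation with somite number (q under 0.05), Mann-Whitney U test between mothers (Bonferroni-adjusted p under 0.01), and a rank-sum test of own genotype (q under 0.01) on log2(RPM + 1) residuals of lane, sex (from Xist above 10 RPM), somite number (litter mean where missing) and 15 principal components. Allele fractions used a paired test against 0 with 20 votes in each cross, and F1 crosses an exact permutation test. Where groups were compared, embryos were the replicates, but littermates share a mother. The genes named were all called members where there were 10 or fewer, else the 10 with the smallest p, plus the 3 largest changes, the Mrps18 paralogs, calls that held with lane out, and up to 3 called genes per partner list. Scripts were tested on simulated data. Within each group no library was a repeat of another (lowest reduced chi-square between embryos 3.44). Pairs of embryos from different groups were not compared. Python 3.11.15, numpy 2.4.6, pandas 2.3.3, scipy 1.17.1, R 4.3.3, edgeR 4.0.16, DESeq2 1.42.0 and limma 3.58.1 were used.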

Additional observations from a re-analysis of the deposited data

Results flagged for a closer look

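Mrps17 in the B6xCast F1 embryos had 1 embryo apart from the rest, at 135 RPM, where the other 7 lay between 99.4 and 115.3 RPM. The gap was 0.552 of the range, above Dixon's critical value of 0.526 for 8 embryos. Of 78 groups of F1 embryos tested in this way, this 1 passed, where chance alone passes about 1 in 20.

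The correlation with somite number differed between B6 and F1 mothers for 41 of 71 members by a test of the difference of the 2 correlations, with 38 lower in embryos of B6 mothers. With lane taken out the same test called 0 of the 71, with 7 at an unadjusted p under 0.05.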

How the results depend on the processing

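The count of members correlated with somite number, 18, was 2 with lane regressed out, 48 with B6 mothers only, 6 in flowcell 1, 36 in flowcell 2, 0 over means per litter (4 at an unadjusted p under 0.05), 2 by edgeR and 5 by DESeq2. In alternatives chosen after seeing the data it was 2 with B6 mothers and lane out, 0 with F1 mothers and lane out (8 at an unadjusted p under 0.05), and 6 without lanes J and N. With F1 mothers only it was 13, but only 2 of the 18 were among them, and under TMM it was 21, with 16 of the 18 among them. The direction reversed, with no call, for Mrpl49 (0.0113 with lane out, 0.37 for F1 mothers with lane out), Mrps23 (0.0233 with lane out, 0.0017 for F1 mothers, 0.32 for F1 mothers with lane out, 0.0289 in flowcell 1), Mrps22 (0.18 for F1 mothers, 0.0207 in flowcell 1), Mrpl36 (0.10 for F1 mothers), and, for F1 mothers with lane out, Mrpl11 (0.11), Mrpl33 (0.12) and Mrpl9 (0.16). The count that differed by mother, 5, was 33 at a Benjamini-Hochberg q of 0.05, 3 in flowcell 1 (Mrps24 the only one shared), 0 in flowcell 2, 3 with at least 1000000 reads, 9 without lanes J and N (chosen after seeing the data), and 0 over litter means, over lane means and with a litter block in voom. The lane means were too few for any gene to pass the Bonferroni threshold. The 18 members with allele-specific expression stayed within a factor of 1.5 under every alternative tried, from 12 over litter means to 25 by an exact sign-flip permutation test over the F1 embryos. The 1 member that differed by F1 cross was 0 in heterozygous N2 embryos by the Mann-Whitney test (5 of 43 at an unadjusted p under 0.05) and 0 by a binomial test that required opposite alleles. The 25 members with an own-genotype effect were 8 with no covariate, 16 with lane only and 14 with F1 mothers only, and 19 to 29 otherwise. The lane share of 66.1% was 2.71% with mother in place of lane, and the median coexpression stayed between 0.09 and 0.14. The cause of these shifts was not tested, and for most of these alternatives the share of all genes is not given here. No paired analysis was possible because the replicate numbers were given in accession order and tie no embryo of one group to one of another. The 5 members under 5 RPM were not tested for somite number, mother or own genotype. No allele fraction could be measured for the 13 members with no vote. Some of those 13 had many reads, as Mrpl12 did with 59133 in heterozygous N2 embryos.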

Other observations

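Mean levels of some members differed between the generations, which were sequenced separately and were not tested. Mrpl30 averaged 81.3 ± 15.6 RPM in B6xCast and 84.3 ± 26.3 in CastxB6 F1 embryos (n = 8 each), with 303.8 ± 94.3 in the 154 N2 embryos. Mrps6 had a higher mean in the F1 embryos, at 148 ± 9.33 and 160 ± 16.0 RPM, with 72.5 ± 26.8 in N2 embryos. Single embryos of the generations overlapped for both genes. N2 embryos ran from 50.2 to 545.7 RPM for Mrpl30 and from 2.34 to 164.3 for Mrps6. CastxB6 embryos ran from 51.9 to 126.2 and from 129.6 to 177.6 RPM. The members' summed RPM was 9278 ± 358 and 10063 ± 163 in the CastxB6 litters of 41 to 43 and 46 to 48 somites (4 embryos each), which did not overlap. In the B6xCast litters it was 9208 ± 117 (3 embryos, from 9133 to 9343) and 9007 ± 395 (5 embryos, from 8569 to 9480), which did overlap. These sums were not tested. The younger CastxB6 litter had GAIIx and HiSeq runs and the older had HiSeq runs only, so stage and run cannot be told apart there.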
